A study of Mus musculus with 20 samples.

Results

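The genes described here are 6 of the metabotropic glutamate receptor genes, Grm2, Grm3, Grm4, Grm5, Grm7 and Grm8, out of 35580 genes in the RNA-seq of miR-324-null mice. They were chosen by gene family, and for each gene the estimated counts and the TPM (abundance scaled by transcript length and library size) of all its transcripts were summed, 32 transcripts in all. There were 4 groups of 5 samples: hippocampus and neocortex of wild-type (WT) control mice, and hippocampus and neocortex of miR-324-null mice, which carry a CRISPR deletion of the Mir324 locus. All samples came from 13.5 month old male mice of the C57BL/6J strain. The founders of the null line had a mixed C57BL/6 and CBA/ca background and were backcrossed to C57BL/6J, and WT and null mice were bred as separate lines from heterozygous crosses. The neocortex samples carry the tissue label cerebral cortex. Nothing in the labels says whether the hippocampus and neocortex samples came from the same animals, so p values measure the spread between these samples. The microRNA itself is not measured by mRNA libraries of this kind, so the deletion could not be checked here.

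Metabotropic glutamate receptors are G protein-coupled receptors that tune excitability and transmitter release. Grm5 encodes mGlu5, a group I receptor that sits mainly around the postsynaptic density, couples to Gq and phospholipase C, and is tethered by Homer proteins. Grm2 and Grm3 encode the group II receptors, which lower cAMP through Gi/o. mGlu2 acts largely on presynaptic axons, whereas mGlu3 is also found on postsynaptic membranes and astrocytes. Grm4, Grm7 and Grm8 encode group III receptors, which sit at or near presynaptic active zones and also couple to Gi/o. The comparisons asked whether these transcripts differed between WT and null mice in each tissue, between the tissues in each genotype, and whether the genotype difference depended on the tissue.

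The sequences of the deleted microRNA are shown because its seed, bases 2 to 8, defines the 7-base matches searched for in the receptor transcripts. Both arms are on the plus strand in GRCm38.p6 (RefSeq), miR-324-5p at chr11:70012060-70012082 and miR-324-3p at chr11:70012095-70012114. The seed is in capitals.
miR-324-5p: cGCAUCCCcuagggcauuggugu
miR-324-3p: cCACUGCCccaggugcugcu
In the annotated 3′UTRs (GENCODE vM21, GRCm38), read on the transcript strand, the letters searched were GGGATGC for miR-324-5p and GGCAGTG for miR-324-3p. Shorter seed matches were not searched for, nor were matches to the other miR-324-3p form that the paper describes, which has a different seed. In protein-coding transcripts, 1 of the 6 receptor genes held a match to the letters searched. It was a match to the miR-324-3p seed in Grm2-201 on the minus strand at chr9:106644345-106644351, 667 bases after the end of the coding sequence, and it is shown with its flanks and with the match in capitals.
Grm2 site: tgctaggcaaGGCAGTGtgctaccaac
Of 21018 genes with a 3′UTR in a protein-coding transcript, 13.5% held a match to the miR-324-3p seed, 7.76% to the miR-324-5p seed and 19.0% to either. In these protein-coding transcripts the longest annotated 3′UTR was 4038 bases for Grm5, 1901 for Grm2, 1163 for Grm7, 885 for Grm4, 581 for Grm8 and 227 for Grm3, against a median of 955 bases over those genes. Other matches in Grm4 (1 match, miR-324-5p) and in Grm7 (1 match to miR-324-5p and 2 to miR-324-3p) lay only in Grm4-208 and Grm7-204, which are annotated as nonsense-mediated decay transcripts, and which took at most 10.4 and 42.8 estimated counts in any sample.

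The samples held between 12752439 and 19617765 estimated counts. A gene was treated as detectable above 3 counts, and the 6 receptor genes had between 54 counts (Grm8) and 4007 counts (Grm5) in every sample, so that all 6 passed the filter on low counts in each comparison. Levels are given either as TPM, which is scaled by transcript length and can be compared between genes, or as CPM (counts scaled to library size) after TMM normalization, which was used to compare samples. In this bulk RNA, fewer cells of a type and less RNA per cell cannot be told apart. The tissue labels fitted their markers: all 8 hippocampal field markers were higher in WT hippocampus than in WT neocortex, and 6 of 7 neocortex markers were lower. Some libraries stood apart. The 5 choroid plexus markers summed to 4512 CPM in hippocampus WT 3, 3878 CPM in hippocampus null 5 and 800.2 CPM in neocortex null 2, and to between 15.5 and 138 CPM in the other libraries. Hippocampus null 1 and null 2 had the lowest sums of the 8 hippocampal field markers among the hippocampus libraries (752 and 775.5 CPM against 833 to 962.5 CPM), but not all markers of one field moved together. In these 2 libraries the dentate granule cell gene Dsp was lowest (9.8 and 15.4 CPM against 28.8 to 68.4 CPM), while C1ql2, another dentate gene, was at least 53.6 CPM in every null library and as low as 43.2 CPM in WT. The CA1 gene Fibcd1 was highest in them (223 and 225 CPM against 125 to 172 CPM), and Wfs1, another CA1 gene, was lowest (76.96 and 58.2 CPM against 96.8 to 206.5 CPM). Prox1, also a dentate gene, had a median of 68.9 CPM in null hippocampus, below the WT range of 76.4 to 114 CPM. Its highest null value was 134 CPM. The 9 markers of striatal projection neurons summed to between 222 and 583 CPM in WT neocortex and between 347 and 951 CPM in null neocortex. The results that follow were also computed without the choroid-rich libraries, without hippocampus null 1 and null 2 and without the 3 neocortex libraries highest in striatal markers. These sets were chosen after the data were seen.

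With TPM summed over all transcripts, Grm5 had the highest mean level of the 6 in every group, and over protein-coding transcripts alone in every group except WT neocortex, where Grm3 (39.6 TPM) stood above Grm5 (35.2 TPM) in all 5 samples. TPM over protein-coding transcripts alone was rescaled to a fixed total in each sample. The rescaling keeps the order of genes within a sample, but these values cannot be set against TPM over all transcripts. Grm4 and Grm8 had the lowest means on both scales. In WT hippocampus, Grm5 stood at 49.5 ± 5.75 TPM (mean ± SD, n = 5), above Grm2 at 34.8 ± 5.17 TPM, and both stood apart from the gene next below them. Grm7 at 23.7 ± 2.0 TPM and Grm3 at 20.8 ± 3.24 TPM overlapped, and were followed by Grm4 at 7.66 ± 2.23 TPM and Grm8 at 4.39 ± 1.41 TPM, whose ranges also overlapped. In WT neocortex, Grm5 at 32.6 ± 4.84 TPM, Grm3 at 31.9 ± 2.83 TPM and Grm2 at 31.5 ± 4.69 TPM could not be ordered, since each overlapped the next, and Grm7 at 23.4 ± 4.12 TPM overlapped Grm2. Grm4 at 11.1 ± 1.55 TPM and Grm8 at 9.65 ± 1.99 TPM overlapped each other below them. In null hippocampus the order of means was as in WT hippocampus, from Grm5 at 52.4 ± 9.38 TPM to Grm8 at 3.95 ± 1.57 TPM, but over protein-coding transcripts alone Grm7 (30.3 TPM) came before Grm2 (26.9 TPM) there, with overlapping ranges. In null neocortex it ran from Grm5 at 43.3 ± 6.67 TPM through Grm3 at 34.3 ± 3.98 TPM, Grm7 at 30.0 ± 5.82 TPM, Grm2 at 28.5 ± 4.14 TPM and Grm4 at 13.1 ± 1.52 TPM to Grm8 at 9.22 ± 0.722 TPM. There the ranges of Grm5 and Grm3, of Grm3 and Grm7 and of Grm7 and Grm2 overlapped. Grm7 stood above Grm2 in 2 of 5 samples, and in all 5 over protein-coding transcripts alone.

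**Figure D1:**
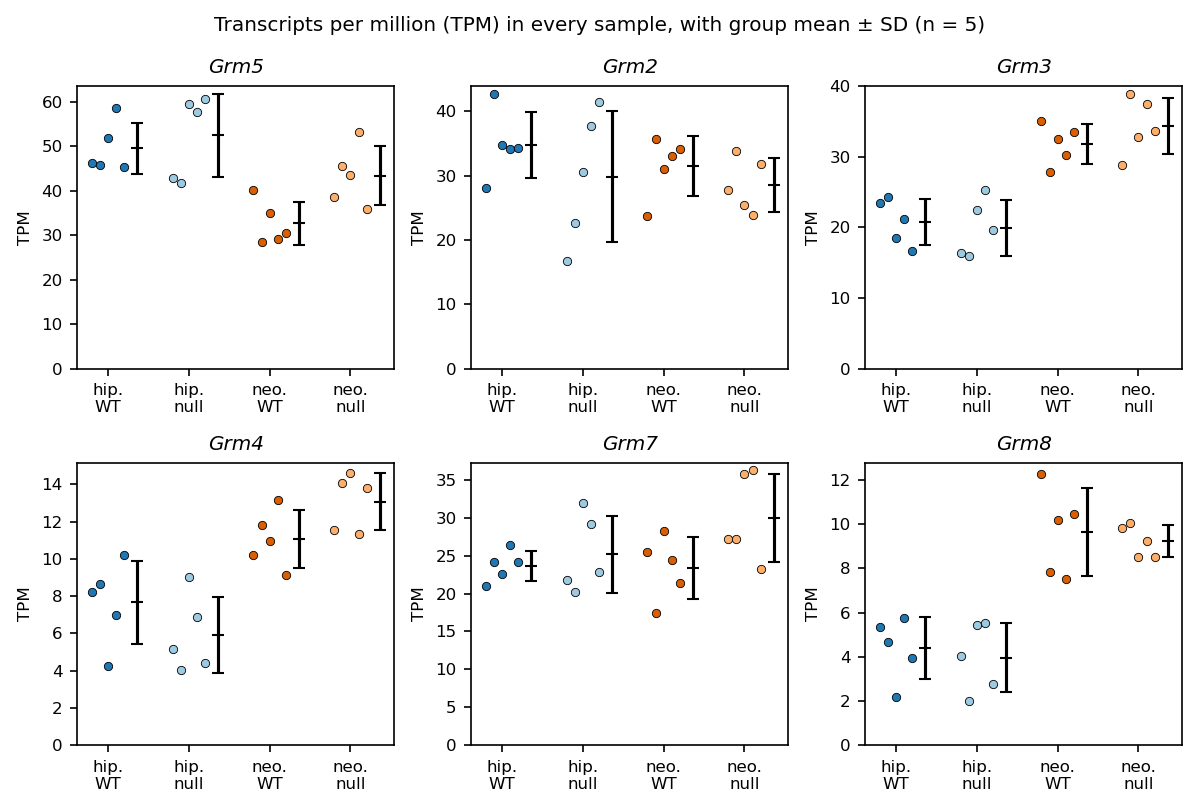
TPM of each receptor gene (y axes, from 0) in every sample of hippocampus (hip.) and neocortex (neo.) of WT and miR-324-null mice (null), with the group mean and SD beside the 5 points of each group. Grm5 was higher in WT hippocampus (45.2 to 58.6 TPM) than in WT neocortex (28.5 to 40.0 TPM), and Grm8 was lower (2.19 to 5.76 against 7.51 to 12.3 TPM).

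Grm6, the group III gene of retinal ON bipolar cells, had 0 to 3 estimated counts in each sample and is not detectable at this depth by that measure.

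The clearest differences were between the tissues. In WT mice, 5 of the 6 receptor genes were called at an adjusted p value of at most 0.05 (edgeR quasi-likelihood test, Benjamini-Hochberg adjustment over all genes tested), with 2 higher and 3 lower in hippocampus than in neocortex. In that comparison 36.1% of the 14894 genes tested were called. In null mice 4 of the 6 were called, 1 higher and 3 lower, against 27.4% of 15033 genes.

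Grm5, the group I gene, was higher in hippocampus. Its level was 206, 203, 210, 232.5 and 196 CPM in the 5 WT hippocampus samples. In the 5 WT neocortex samples it was 149, 123, 137, 118 and 129 CPM. Every hippocampus sample lay above every neocortex sample, and the difference was 1.60-fold (log2 fold change 0.68, SE 0.066, adjusted p = 3.22e-06). In null mice the samples ranged from 199 to 246 CPM in hippocampus and from 140 to 191 CPM in neocortex, again with no overlap, and the difference was 1.35-fold (log2 fold change 0.43, SE 0.087, adjusted p = 0.0026). The TPM ranges of the null tissues did overlap (41.6 to 60.6 against 35.9 to 53.1 TPM).

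The group II genes differed in opposite directions. Grm3 was 44.1, 43.4, 32.7, 36.2 and 29.9 CPM in WT hippocampus. It was 60.0, 51.8, 54.8, 52.5 and 61.9 CPM in WT neocortex. No sample overlapped, and Grm3 was 1.5-fold higher in WT neocortex (log2 fold change -0.59 for hippocampus against neocortex, SE 0.10, adjusted p = 0.000458). In null mice it was 1.64-fold higher in neocortex (log2 fold change -0.71, SE 0.11, adjusted p = 0.000297), without overlap.

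Grm2 was 57.6, 70.5, 61.3, 60.4 and 64.2 CPM in WT hippocampus. It was 53.5, 57.0, 55.4, 54.9 and 55.3 CPM in WT neocortex, a narrow range that lay just below all hippocampus samples. The difference was 1.14-fold (log2 fold change 0.19, SE 0.054, adjusted p = 0.015). It was not called when the length of the transcripts in use was taken into account in edgeR (adjusted p = 0.376) or in DESeq2 (adjusted p = 0.397), or when all 20 samples shared one fit (adjusted p = 0.402), and the TPM ranges of the tissues overlapped (28.1 to 42.7 against 23.6 to 35.7 TPM). In null mice Grm2 was 34.2 and 34.9 CPM in hippocampus null 1 and null 2, the libraries low in Dsp, and 68.6, 61.7 and 69.3 CPM in the other three. The tissue difference was not called with all null samples (log2 fold change 0.12, SE 0.20, adjusted p = 0.694). Without those 2 libraries it was called (log2 fold change 0.43, SE 0.11, adjusted p = 0.0163). They were chosen after the data were seen and were the lowest of their group in Grm2. Leaving them out therefore raised the hippocampus level by construction, and no conclusion is drawn from this call.

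Of the group III genes, Grm8 and Grm4 were lower in hippocampus and Grm7 showed no call. Grm8 was 8.0, 8.32, 4.61, 8.34 and 7.34 CPM in WT hippocampus. It was 16.9, 13.9, 17.0, 13.1 and 17.1 CPM in WT neocortex. All hippocampus samples lay below all neocortex samples, and Grm8 was 2.14-fold higher in WT neocortex (log2 fold change -1.09, SE 0.14, adjusted p = 5.32e-05) and 2.46-fold higher in null neocortex (log2 fold change -1.30, SE 0.19, adjusted p = 0.000275), the largest tissue differences among the 6 genes in either genotype.

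Grm4 was 20.2, 19.9, 10.1, 15.5 and 23.8 CPM in WT hippocampus. It was 22.8, 28.0, 24.3, 29.4 and 22.8 CPM in WT neocortex. Hippocampus WT 5 lay within the neocortex range, and Grm4 was 1.42-fold higher in WT neocortex (log2 fold change -0.51, SE 0.17, adjusted p = 0.0371). This call was lost when any of hippocampus WT 4, neocortex WT 2 (the WT library highest in striatal markers), neocortex WT 3 or neocortex WT 4 was left out, with adjusted p between 0.0606 and 0.0948, and also with a length offset in edgeR (adjusted p = 0.0673) and with all 20 samples in one fit (adjusted p = 0.0565). In null mice, hippocampus samples from 9.25 to 21.0 CPM lay below all neocortex samples from 24.3 to 30.6 CPM, and Grm4 was 2.11-fold higher in neocortex (log2 fold change -1.08, SE 0.20, adjusted p = 0.00127).

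Grm7, which encodes the most widely distributed group III receptor, was 42.5, 42.1, 42.4, 44.2 and 40.3 CPM in WT hippocampus. It was 46.1, 37.5, 42.1, 39.7 and 39.6 CPM in WT neocortex. The tissues overlapped in both genotypes, with log2 fold changes of 0.04 (SE 0.057, adjusted p = 0.59) in WT and 0.0081 (SE 0.084, adjusted p = 0.957) in null mice. The sign in null mice turned negative under several other settings.

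**Figure D2:**
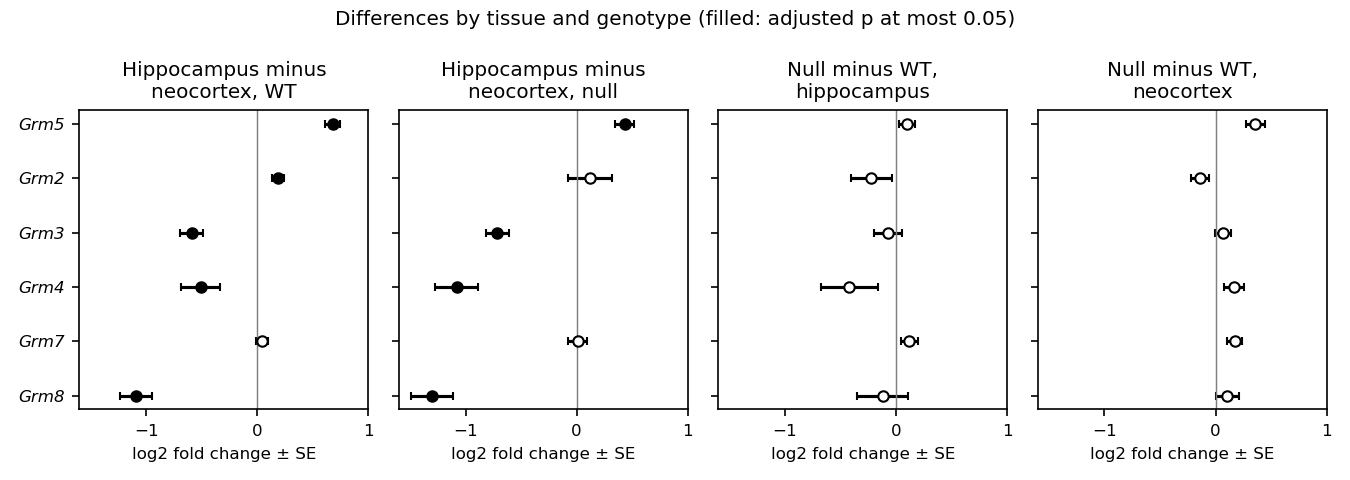
Log2 fold change with its SE (x axes) for each receptor gene, for hippocampus minus neocortex in WT and in null mice, and for null minus WT in hippocampus and in neocortex. Filled points have an adjusted p of at most 0.05: 5 genes in WT mice and 4 in null mice differed between tissues, and none differed between genotypes.

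Within the hippocampus, Grm4 and Grm8 varied together with genes of the neocortex, and not with these alone. The 7 neocortex markers summed to 153 CPM in WT 3, and to 174.5, 159 and 162 CPM in null 1, null 2 and null 5. In these 4 libraries Grm4 was 10.1, 10.8, 9.25 and 9.76 CPM, and Grm8 was 4.61, 5.54, 4.13 and 5.72 CPM. In the other 6 hippocampus libraries the markers summed to 197 to 255 CPM, Grm4 ranged from 15.5 to 23.8 CPM and Grm8 from 7.34 to 9.59 CPM. For neither gene did the ranges of these sets of libraries overlap. The sets and the genes were chosen after the data were seen, so this is a description and no conclusion is drawn from it. The CA1 gene Wfs1 was also lower in these 4 libraries (58.2 to 107.5 CPM against 130 to 206.5 CPM in the others). Fibcd1, another CA1 gene, was higher in them (143.1 to 225.3 CPM against 124.5 to 142.2 CPM). Of these 4 libraries, WT 3 and null 5 were rich in choroid plexus markers. Without WT 3, the choroid-rich library in the comparison of WT tissues, the log2 fold change for hippocampus against neocortex was -0.35 for Grm4 (SE 0.12, adjusted p = 0.0367) and -0.95 for Grm8 (SE 0.10, adjusted p = 1.31e-05). The part of these markers in the result was not tested.

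**Figure D3:**
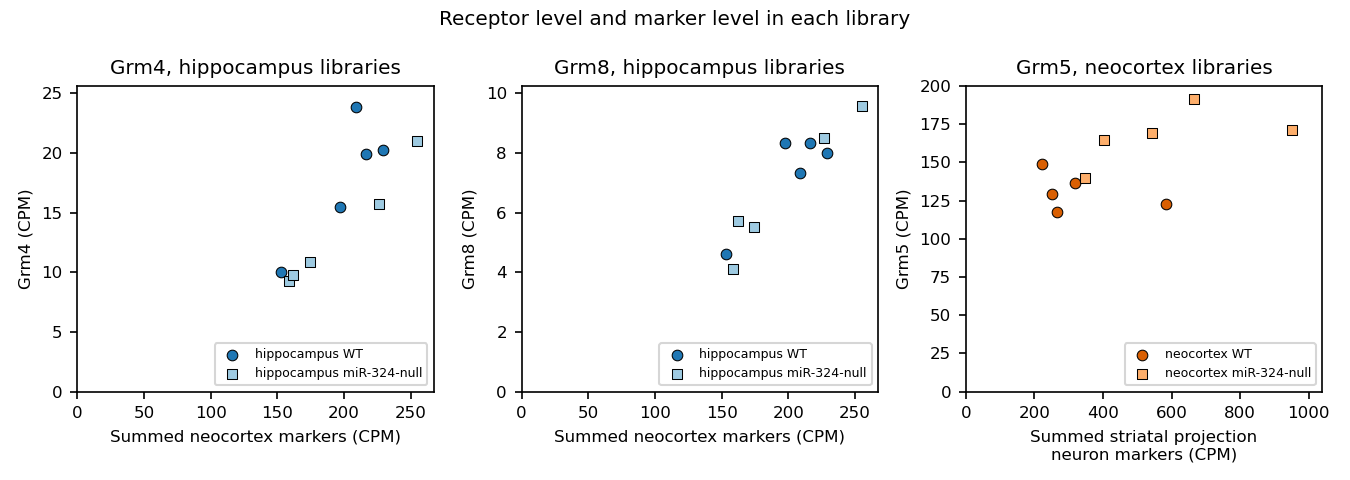
CPM of Grm4 and Grm8 against the summed CPM of 7 neocortex markers in the 10 hippocampus libraries, and CPM of Grm5 against the summed CPM of 9 striatal projection neuron markers in the 10 neocortex libraries; each point is a library, by genotype. The 4 hippocampus libraries with the lowest neocortex markers (153 to 174.5 CPM) had Grm4 at 9.25 to 10.8 CPM. The null neocortex library lowest in striatal markers (347 CPM) had the lowest Grm5 of its group (140 CPM). The WT neocortex library highest in them (583 CPM) had the second lowest Grm5 of its group (123 CPM).

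Between genotypes in the hippocampus, 0 of the 6 receptor genes were called, against 0.115% of the 14796 genes tested (17 genes). At an unadjusted p under 0.05, 1635 of those genes and none of the 6 receptor genes passed, and DESeq2 also called none of the 6. The log2 fold changes, null against WT, were 0.10 (SE 0.070, adjusted p = 0.638) for Grm5, -0.22 (SE 0.19, adjusted p = 0.701) for Grm2 and -0.07 (SE 0.13, adjusted p = 0.879) for Grm3. For the group III genes they were -0.42 (SE 0.25, adjusted p = 0.567) for Grm4, 0.12 (SE 0.078, adjusted p = 0.603) for Grm7 and -0.12 (SE 0.23, adjusted p = 0.887) for Grm8. The null samples were the more spread for Grm2, with an SD of 17.8 CPM around 53.7 CPM against 4.91 CPM around 62.8 CPM in WT. Without null 1 and null 2, the libraries low in Dsp, the log2 fold change of Grm2 was 0.08 (SE 0.072, adjusted p = 0.731), and those of Grm3 and Grm8 also turned positive, at 0.07 and 0.12. These libraries were the lowest of the null group in each of these genes, so leaving them out raised the fold changes by construction. Grm2, the gene with a miR-324-3p seed match in its main transcript, was thus not called in either direction in this tissue.

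In the neocortex, 0 of the 6 were called with edgeR, against 0.315% of the 14930 genes tested (47 genes). At an unadjusted p under 0.05, 1822 of those genes passed, and among the receptors Grm5 and Grm7. Grm5 came nearest to a call. Its level in null neocortex was 169, 164.5, 171, 191 and 140 CPM, against 149, 123, 137, 118 and 129 CPM in WT. In the null group 4 of the 5 samples lay above all WT samples, and null 5 lay within the WT range. The difference was 1.28-fold (log2 fold change 0.36, SE 0.082, unadjusted p = 0.00078, adjusted p = 0.105). DESeq2 called it with an adjusted p of 0.00628, and of 0.0442 with a length offset. Leaving out null 5 gave a log2 fold change of 0.42 with an adjusted p of 0.00726, and raised the number of genes called over the whole table from 47 to 566. Null 5 had the lowest Grm5 of the null group, so leaving it out raised the fold change of Grm5 by construction. Leaving out any other library left Grm5 without a call.

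Marker levels also differed among the neocortex libraries. In null 1 to null 5, the striatal projection neuron markers summed to 542.5, 401, 951, 666 and 347 CPM, and the neocortex markers to 546, 509, 583, 600 and 826 CPM. Null 5, with the lowest Grm5 of its group, had the least of the former and the most of the latter. In the WT libraries the striatal sums were 222, 583, 318, 266 and 250 CPM, and WT 2, with the highest sum, had 123 CPM of Grm5, the second lowest of its group. The 9 striatal markers had a median log2 fold change of 1.03 between genotypes in neocortex, against 0.0046 for all genes tested. None was called by edgeR or DESeq2, and 8 of the 9 had an unadjusted p under 0.05 with edgeR. Without the 3 neocortex libraries highest in striatal markers (WT 2, null 3 and null 4), the log2 fold change of Grm5 was 0.25 (SE 0.092, adjusted p = 0.664). Null 4 and null 3 were the highest of the null group in Grm5 (191 and 171 CPM), and WT 2 was low in its group. Leaving these libraries out therefore lowered the fold change by construction, and no conclusion is drawn from it. Markers of the hippocampus, where Grm5 was the higher, also differed among the neocortex libraries. The 8 hippocampal field markers summed to 363, 339, 301, 319 and 203 CPM in null 1 to null 5 and to between 203 and 257 CPM in WT neocortex, so that null 1 to null 4 lay above all WT libraries and null 5 was lowest of its group, as for Grm5. Beyond that the orders differed: the sum was highest in null 1 and WT 5, and Grm5 in null 4 and WT 1. Neurod6 had a lower mean in null than in WT neocortex (68.2 against 73.7 CPM), and the other field markers had a higher one. Of the 7 that were tested, with a median log2 fold change of 0.60, edgeR called 0 and DESeq2 called 2 (Fibcd1 and Prox1), and 5 had an unadjusted p under 0.05 with edgeR. Fibcd1 was 2.24-fold higher in null neocortex, without overlap (log2 fold change 1.17, SE 0.25, adjusted p = 0.0854 with edgeR). The part of these markers in the result was not tested.

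Grm7 was 45.3, 42.0, 47.7, 50.5 and 44.5 CPM in null neocortex, a range that overlapped the WT range. Its log2 fold change was 0.17 (SE 0.066, unadjusted p = 0.0218, adjusted p = 0.317). The remaining genes had log2 fold changes of -0.14 (Grm2, SE 0.081, adjusted p = 0.52), 0.07 (Grm3, SE 0.072, adjusted p = 0.771), 0.17 (Grm4, SE 0.089, adjusted p = 0.48) and 0.10 (Grm8, SE 0.10, adjusted p = 0.744). Grm8 turned to -0.11 under both fits with a length offset.

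The genotype-by-tissue interaction was called for 0 of the 6, against 0.0195% of 15391 genes (3 genes). Over all genes 857 had an unadjusted p under 0.05, and DESeq2 called 0 of the 6. The interaction is the genotype difference in hippocampus minus that in neocortex, and was -0.25 on the log2 scale for Grm5 (SE 0.11, unadjusted p = 0.0364, adjusted p = 0.88) and -0.58 for Grm4 (SE 0.28, unadjusted p = 0.055, adjusted p = 0.89). The tissue comparisons in WT and null mice and the interaction share samples with the genotype comparisons.

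The transcripts behind these sums differed in length and coding sequence, and kallisto's division of reads between them is an estimate. They are described without a test. Grm5-202 held 80.2 ± 3.42% of Grm5 TPM in WT hippocampus and 76.2 ± 3.14% in WT neocortex. Grm5-204 encodes a receptor of 1203 codons in place of 1171, as the mGlu5b form does relative to mGlu5a. It held 9.6 ± 2.05% in WT hippocampus, 9.71 ± 3.95% in null hippocampus, 10.8 ± 2.11% in WT neocortex and 12.1 ± 3.39% in null neocortex, with overlapping ranges in the 4 groups. Of the TPM of this pair of transcripts, the longer coding form took 10.7 ± 2.34% in WT hippocampus and 14.0 ± 4.4% in null neocortex. The annotated 3′UTR of Grm5-204 is 785 bases, against 4038 in Grm5-202. The 96 coding bases of Grm5-204 that Grm5-202 lacks tell these forms apart. They lie in 1 block on the plus strand at chr7:88116193-88116288 (GRCm38) and are shown in capitals.
Grm5-204 insert: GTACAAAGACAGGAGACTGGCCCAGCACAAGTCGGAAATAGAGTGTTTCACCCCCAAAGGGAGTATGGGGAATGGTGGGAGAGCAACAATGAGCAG

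Grm7 has a pair of alternative coding ends. Grm7-202, of 915 codons, held 64.2 ± 3.4% of Grm7 TPM in WT hippocampus and 58.1 ± 8.36% in null neocortex. Of the TPM of Grm7-201 and Grm7-202 together, Grm7-201, of 922 codons, took 8.6 ± 3.37% in WT hippocampus, 6.37 ± 3.11% in null hippocampus, 9.26 ± 2.02% in WT neocortex and 8.17 ± 2.36% in null neocortex. These ranges overlapped in all 4 groups. The coding bases particular to each form, which include the stop codon, are on the plus strand at chr6:111501510-111501580 for Grm7-201 and at chr6:111566018-111566067 for Grm7-202.
Grm7-201 end: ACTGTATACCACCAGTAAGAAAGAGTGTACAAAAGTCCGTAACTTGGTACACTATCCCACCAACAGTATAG
Grm7-202 end: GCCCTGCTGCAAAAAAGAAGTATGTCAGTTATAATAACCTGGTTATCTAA

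Short annotated fragments took part of the TPM of several genes from few reads. Grm2-204, a 448-base noncoding transcript, held 23.6 ± 5.32% of Grm2 TPM in WT hippocampus from at most 32.1 estimated counts, and Grm7-205, of 386 bases, held 17.8 ± 7.62% of Grm7 TPM there from at most 10.4 counts. Grm2-201 held 52.9 ± 4.77% of Grm2 TPM in that group. Grm4-201 and the shorter coding Grm4-206 held 42.6 ± 4.96% and 42.0 ± 14.2% of Grm4 TPM, and the 3 transcripts of Grm8 with the same coding length, Grm8-201, Grm8-202 and Grm8-203, held 18.4 ± 7.5%, 22 ± 26% and 45.6 ± 20.2% of Grm8 TPM in WT hippocampus. Grm3 has 1 transcript in the files.

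**Figure D4:**
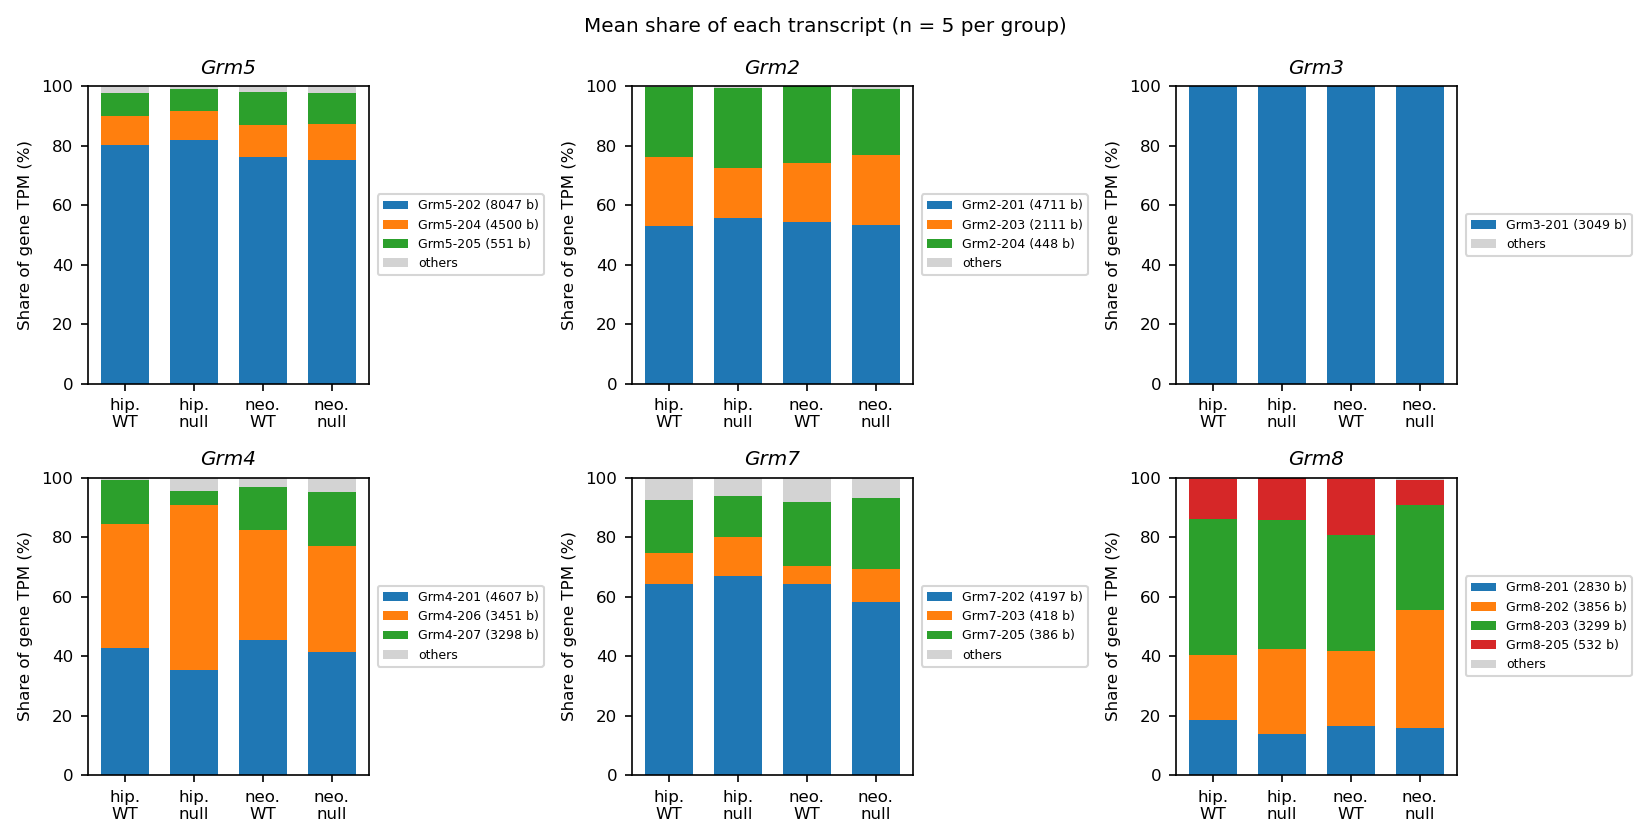
Mean share of each gene's TPM (%, y axes) held by its transcripts in the 4 groups (n = 5 each), for transcripts with a share of at least 10% in some group; lengths in bases are in the keys and the rest is grey. Grm5-202 held the largest share of Grm5 in every group, from 75.0% in null neocortex to 82.0% in null hippocampus.

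Many partners of mGlu5 differed between the tissues. Of 13 group I partner genes, 8 were higher and 4 lower in WT hippocampus than in WT neocortex (median log2 fold change 0.26, against -0.00078 for all genes), where 36.1% of all genes tested were called. In null mice 7 were higher and 4 lower, where 27.4% of all genes were called. Among those higher in WT hippocampus was Homer3, a long-form Homer scaffold (log2 fold change 2.89, adjusted p = 2.01e-10), as were Ncdn, whose product binds mGlu5 (1.17, adjusted p = 1.53e-08), Homer2 (0.50, adjusted p = 0.00209), Dagla, which makes 2-arachidonoylglycerol (0.41, adjusted p = 0.000149), Grasp (0.27, adjusted p = 0.0279), and the Gq family genes Gnaq (0.26, adjusted p = 0.00221) and Gna11 (0.25, adjusted p = 0.000567). Plcb4 and Plcb1, which encode phospholipase C isoforms, were lower (-1.75, adjusted p = 1.86e-09, and -0.38, adjusted p = 8.4e-05), as was Itpr1, the inositol trisphosphate receptor gene (-0.84, adjusted p = 7.63e-06). Homer1 was also lower in WT hippocampus, at 40.6 ± 3.14 TPM against 101 ± 7.84 TPM (log2 fold change -1.33, adjusted p = 5.16e-08). In null neocortex Homer1 ranged from 54.4 to 136 TPM, and it was not called between genotypes there (log2 fold change -0.38, adjusted p = 0.557). Frmpd4 was not called between the tissues in either genotype.

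Of 9 Gi/o genes, 2 were lower in WT hippocampus, Gnai1 (log2 fold change -0.24, adjusted p = 0.000525) and Adcy2 (-0.20, adjusted p = 0.0104), and 7 were not called, a share called that was below the 36.1% of all genes. In null mice Adcy5, an adenylyl cyclase also abundant in striatum, was lower in hippocampus (-0.52, adjusted p = 0.0149) and Gnai3 was higher (0.19, adjusted p = 0.0402). Among 4 group III partners, the trans-synaptic ligand gene Elfn2 was higher in hippocampus in WT (0.52, adjusted p = 1.25e-05) and null mice (0.50, adjusted p = 0.000105), as was Grip1 (0.35, adjusted p = 0.00324, and 0.44, adjusted p = 0.00839). Elfn1, at 10.5 ± 1.84 TPM in WT hippocampus and 11.4 ± 0.962 TPM in WT neocortex, was not called (-0.11, adjusted p = 0.393), nor was Pick1. Of the genes for N-acetylaspartylglutamate, a peptide agonist of mGlu3, the synthetase gene Rimkla was higher in WT hippocampus (0.52, adjusted p = 0.00488), and neither Rimklb (0.20, adjusted p = 0.39) nor the peptidase gene Folh1 (0.16, adjusted p = 0.396) was called.

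Between genotypes 0 of these 29 pathway genes were called in either tissue by edgeR or by DESeq2, where 0.115% and 0.315% of all genes were called by edgeR. At an unadjusted p under 0.05 with edgeR, 6 of the 29 passed in hippocampus and 5 in neocortex, against 11.1% and 12.2% of all genes. Rimklb had the largest positive log2 fold change among them in hippocampus, 0.43 (adjusted p = 0.313). In CPM, the scale used to compare samples, its ranges overlapped, with hippocampus null 3 inside the WT range. Its TPM ranges did not overlap (25.2 to 36.8 TPM in WT against 38.0 to 51.8 TPM in null samples).

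Across all 20 samples, the genes whose log2 CPM was most like that of each receptor were named as a description, over 15375 genes, from samples that share 2 tissues. Grm5 was most like Lmo7 (Pearson r = 0.97), Plppr4 (0.96) and Kcnab1 (0.96). Grm3 was most like Ptpn4 (0.97), Myo5a (0.96) and Kif5a (0.96), Grm4 like Syt2 (0.95), Coro6 (0.94) and Tmem44 (0.94), and Grm8 like 9330182L06Rik (0.97), Tox (0.96) and Pcdh10 (0.96). Grm2 was most like Zbtb1 (0.90), Sec14l1 (0.83) and Mfap3 (0.83), and Grm7 like Jakmip2 (0.83), Scaper (0.83) and Adgrb3 (0.80).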

How the data were processed

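RNA was sequenced from 20 samples as stranded mRNA libraries. The authors pseudo-aligned reads with kallisto to an Ensembl mouse transcriptome of GRCm38 and deposited estimated counts and TPM per transcript. The kallisto version and strand setting are not given in the sources used here. The deposited effective length in bases was used only for length offsets. Of 115270 transcripts, 113580 matched GENCODE vM21 by identifier. The 1690 others held at most 0.556% of a sample's estimated counts. Sums per gene were rounded to whole counts.

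Groups were taken from the sample labels. Genes were kept by edgeR's filterByExpr, scaled by TMM and compared with the quasi-likelihood test of edgeR 4.0.16 (R 4.3.3), with Benjamini-Hochberg adjustment at 0.05. Fits used the 10 samples of each comparison, or 20 for the interaction. Alternatives included DESeq2 1.42.0, and the method was tested on simulated data. The planned transcript share test (diffSpliceDGE) recovered few changes put into simulated data, so it was not run, and shares are descriptions. Genes named were the 6 receptors, Grm6, listed pathway genes and the 3 most correlated genes per receptor. Some listed genes are counted but not reported here by name. Members and lists were chosen with earlier results of these data known. The 13 group I genes found are those listed by symbol (Tamalin is absent as a separate symbol). Coefficients of r used log2 CPM with a prior count of 2. Python 3.11.15, numpy 2.4.6 and pandas 2.3.3 were used.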

Additional observations from a re-analysis of the deposited data

Results flagged for a closer look

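One level stood away from the others of its group: Grm8 in hippocampus WT 3 was 4.61 CPM, against 7.34 CPM in the next lowest of the 5 samples, so that the gap made up 0.733 of the whole range (Dixon's 95% limit is 0.71). It was the only one of the 24 sets of 5 samples to pass, and chance passes about 1 in 20. The same library had 4512 CPM of summed choroid plexus markers, the highest of all 20 libraries, and 153 CPM of summed neocortex markers, the lowest of the hippocampus libraries. The part of these in the level of Grm8 was not tested.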

How the results depend on the processing

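The tissue differences of Grm3, Grm5 and Grm8 were called in both genotypes, and that of Grm4 in null mice, in the same direction under every alternative run. The number of receptors called between WT tissues was 5, and 3 with a length offset in edgeR (without Grm2 and Grm4) or with all 20 samples in one fit (also without Grm2 and Grm4). It was 4 with DESeq2 and a length offset (without Grm2), and 4 without the library high in striatal markers (without Grm4); leaving out a library in turn gave 4 to 5, without Grm4 where it was 4. Between genotypes in neocortex it was 0, and 1 (Grm5) with DESeq2, with or without a length offset; leaving out a library in turn gave 0 to 1, with 1 only without null replicate 5. Over all genes, 17 were called between genotypes in hippocampus, and 9 with at least 10 counts in every sample, 139 with DESeq2, 85 with DESeq2 and a length offset, 83 with all 20 samples in one fit, and 10 to 31 when a library was left out (31 without null replicate 5). In neocortex 47 were called, and 26, 240 and 184 under the strict count filter, DESeq2, and DESeq2 with a length offset, 30 with a length offset in edgeR, and 27 to 566 when a library was left out (566 without null replicate 5). The interaction was called for 3 genes, and for 11 with DESeq2, 1 with a length offset in edgeR or without the choroid-rich libraries, the libraries low in Dsp or those high in striatal markers, and 1 to 20 when a library was left out (20 without neocortex null replicate 5). Between null tissues 4125 were called, and 2667 without the libraries high in striatal markers. These left-out sets were chosen after seeing the data. The causes were not tested.

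Values that changed sign were all without a call. Without the libraries low in Dsp the log2 fold changes between genotypes in hippocampus were 0.0824 for Grm2, 0.0656 for Grm3 and 0.119 for Grm8, and the interaction was 0.23 for Grm2, 0.0052 for Grm3, 0.035 for Grm7 and 0.0218 for Grm8. Without the libraries high in striatal markers they were -0.0183 for Grm2 between null tissues and 0.052 for the interaction of Grm7. Grm8 in neocortex was -0.107 and -0.11 with a length offset in edgeR and in DESeq2. Grm7 between null tissues was -0.00554 with no filter, -0.000253 with at least 10 counts in every sample, -0.169 and -0.177 with a length offset in edgeR and DESeq2, and -0.000349 with all 20 samples in one fit. Leaving out a library gave -0.291 to 0.00794 for Grm8 in hippocampus, -0.0506 to 0.0479 for Grm7 between null tissues and -0.181 to 0.047 for the interaction of Grm2.

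The labels do not say that a replicate number marks shared animals. In their deviations from the group means, same-numbered samples correlated at -0.172 to 0.121 between genotypes, and at -0.102 to 0.177 between tissues, where 9 of 10 pairs were positive and 5 of 10 samples correlated best with their own number, so shared animals across tissues cannot be told from these values. With the replicate number as a block, 4 genes were called between genotypes in hippocampus and 30 in neocortex, 5044 between WT tissues and 4041 between null tissues, and the block changed no call among the receptors. Other settings for transcript shares were not run, since the test itself was not run. TPM over protein-coding transcripts only, rescaled to a fixed total in each sample, moved 12 of 24 group means by more than 1 SD. Part of this is the rescaling itself: Grm3, with 1 transcript, went from 31.9 to 39.6 TPM in WT neocortex. With 5 samples a group, differences such as that of Grm4 in hippocampus (SE 0.25 on the log2 scale) were measured with low precision.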
